A study of Mus musculus with 6 samples.

Results

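Respiratory complex I (NADH:ubiquinone oxidoreductase) genes were examined in 3T3-L1 adipocytes expressing uncoupling protein 1 (UCP1). All 39 had a lower mean log2 intensity on the 3 UCP1 arrays than on the 3 control arrays, against 60.1% of all 18014 genes and 67% of those at or above the median probe level. In the brightest of 10 equal bins of genes by level, which held 32 of the 39, 81.9% of genes lay below 0. The differences of the 39 genes (log2, UCP1 minus control) ran from -0.59 to -0.05 with a median of -0.34, and the median over all genes was -0.08. None of the 39 passed the threshold in either direction (limma, Benjamini-Hochberg adjusted p of 0.05 over all probes), whereas 4.05% of all genes did. In simulated data the fit recovered 6% of changes of 0.5 (log2), so 0 calls do not show that changes of this size are absent. How far the genes lay below 0 depended on the scaling between arrays: after quantile normalization 25 of the 39 remained below 0, with a median of -0.0755, against 39 in the deposited scaling.

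The genes were those with a symbol beginning in Nduf and at least 1 probe that the platform annotation gives that symbol alone, which held for 44 probes of 39 genes among the 18014 genes tested. Where a gene had several probes, the brightest by mean log2 intensity was used. By role they comprised 6 core subunits, 24 accessory subunits, 7 assembly factors and 2 genes set apart, the paralogue Ndufa4l2 and the pseudogene Ndufs5-ps. The other Nduf genes, among them Ndufv3, Ndufb8 and Ndufa4, were not analysed here.

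3T3-L1 is a mouse preadipocyte line that stores lipid after an adipogenic mixture. The tested arrays held total RNA from adipocytes expressing UCP1, and the control arrays RNA from adipocytes carrying only the Tet-off plasmid, part of a tetracycline-regulated expression system. Both were sampled 10 days after differentiation and hybridised, biotin-labelled, to single-colour CodeLink mouse arrays, 3 arrays per group. The UCP1 arrays are titled UCP1, UCP2 and UCP3, while their source labels name uncoupling protein 1 on all of them, so the digit was read as a replicate number. The labels do not say what drove UCP1, whether the cells were clones or pools, or whether each array had its own culture, so the p-values rest on a spread among arrays that may be technical. In such bulk RNA, fewer cells of a type and less RNA per cell cannot be told apart.

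Complex I is the entry point of the respiratory chain for electrons from NADH. Its matrix arm oxidises NADH and passes the electrons along iron-sulfur clusters to ubiquinone, and its membrane arm pumps protons out of the matrix. The core subunits carry out the reaction, part of them encoded by mitochondrial DNA and the rest in the nucleus. Accessory subunits surround and stabilise the core, and assembly factors help to build the complex without staying in it. UCP1 lets the pumped protons flow back without making ATP, so it acts on the gradient that complex I helps to make.

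Ucp1 itself read 2.34, 2.02 and 1.54 on the UCP1 arrays, against 0.222, 0.232 and 0.278 on the control arrays. That is a difference of 3.00 ± 0.234 (log2, SE, limma, adjusted p = 0.00013), higher on all 3 UCP1 arrays, while an exact permutation test of 3 against 3 arrays (two-sided) cannot go below the 0.1 it gave. Intensities are relative to an array median near 1. The 99th percentile of intensity was 185.3 to 225 on the UCP1 arrays and 255.3 to 278.6 on the control arrays, so bright probes as a whole read lower on the UCP1 arrays. Of the adipocyte markers, 7 of 8 were measured, with a summed intensity of 2812 to 3882 on the UCP1 arrays and 3414 to 3917 on the control arrays. The sum is carried by the brightest spots: Lpl on UCP1 array 1 and Adipoq on UCP1 array 2 were the maxima of their arrays, at 950 and 920.9. All 7 markers lay below 0, with a median of -0.12, against 60.1% of all genes, and 0 of the 7 passed in either direction, against 4.05%. All of them but Cebpa were in the brightest of 10 bins of genes by level. In that bin 81.9% of genes lay below 0, with a median of -0.18. The lowest marker was the dim Cebpa, at -0.69 (limma, adjusted p = 0.167). Of the preadipocyte and fibroblast markers, 7 of 8 were measured, with sums of 178.4 to 223.5 on the UCP1 arrays and 140.9 to 170.6 on the control arrays, and 2 of the 7 rose, Pdgfra by 0.67 and Thy1 by 0.80 (log2, limma, adjusted p = 0.0484 and 0.0319), against 1.13% of all genes called higher. Cd34 and Col1a1 of the same list lay lower, at -0.29 and -0.21, and did not pass. Of the macrophage markers, 2 of 4 were measured, and Adgre1 and Ptprc summed to 0.137 to 0.332 on the UCP1 arrays and 0.145 to 0.463 on the control arrays, below the median spot. The part of these markers in the complex I results was not tested.

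The promoters of the complex I genes are shown as a description of their sequence. RefSeq promoters (GRCm38.p6, 250 bases before to 50 after the start) were available for 33 of the 39 genes and were searched on both strands for 4 motifs of factors known to act on mitochondrial genes. The motif of the factor YY1, a fixed run of letters shown in capitals below, occurred in 5 of the 33 genes, which is 15.2%, against 0.995% of 27025 genes with a promoter and 2.3% of 8731 such genes at or above the median probe level. In each of the 5 the match began 11 to 36 bases from the start, downstream of it. The motif itself includes ATG. The sequences are given 5′ to 3′ on the gene's strand, with the motif in capitals.
Ndufs4 (chr13:114388045-114388069, minus strand): tgcctacaggAAGATGGCGGcggtc
Ndufs6 (chr13:73328433-73328459, minus strand): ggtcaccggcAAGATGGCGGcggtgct
Ndufs7 (chr10:80249463-80249492, plus strand): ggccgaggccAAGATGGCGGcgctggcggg
Ndufa9 (chr6:126849096-126849125, minus strand): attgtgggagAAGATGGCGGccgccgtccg
Ndufaf8 (chr11:120098934-120098963, plus strand): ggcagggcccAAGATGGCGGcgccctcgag

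The motif of nuclear respiratory factor 1 (NRF1), the run in capitals below with any base at its middle variable position, occurred on either strand in 8 of the 33 genes, which is 24.2%, against 5.19% of all genes with a promoter and 10.7% of those at or above the median probe level. Ndufb4 held 3 matches and the other 7 genes held 1 each. The following 5 windows are from genes described below, with the match in capitals.
Ndufa11 (chr17:56717692-56717721, plus strand): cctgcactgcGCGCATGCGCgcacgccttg
Ndufa8 (chr2:36049349-36049378, minus strand): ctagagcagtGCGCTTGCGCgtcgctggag
Ndufa6 (chr15:82354249-82354278, minus strand): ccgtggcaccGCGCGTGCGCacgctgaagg
Ndufaf5 (chr2:140170652-140170681, plus strand): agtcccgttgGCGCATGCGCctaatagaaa
Ndufs6 (chr13:73328479-73328508, minus strand): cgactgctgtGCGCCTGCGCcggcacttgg

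The promoter of Ndufs6 was the only member promoter with matches to more than 1 of the 4 motifs, and it is shown whole, at chr13:73328433-73328732 on the minus strand, with the NRF1 motif first and the YY1 motif after it in capitals. Ndufs6, a zinc-binding accessory subunit, read 146, 119.5 and 108 on the UCP1 arrays and 163, 155 and 145 on the control arrays, at -0.32 ± 0.162 (log2, SE, limma, adjusted p = 0.354). Its groups overlapped only through UCP1 array 1.
Ndufs6: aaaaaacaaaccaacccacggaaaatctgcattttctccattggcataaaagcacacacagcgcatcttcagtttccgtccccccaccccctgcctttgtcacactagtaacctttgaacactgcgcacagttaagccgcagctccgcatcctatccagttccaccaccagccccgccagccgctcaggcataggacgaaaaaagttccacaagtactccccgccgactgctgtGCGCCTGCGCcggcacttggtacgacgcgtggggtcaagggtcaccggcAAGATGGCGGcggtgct
The ETS letters CCGGAAGT occurred in 1 of the 33 genes, Ndufs3, which is 3.03% against 4.31% of all genes with a promoter. The letters TCAAGGTCA of oestrogen-related receptor alpha occurred in 0 of the 33, against 0.466%. The 8 genes with the NRF1 motif had a median difference of -0.36 and the 25 without it -0.34. The 5 with the YY1 motif had -0.445, from -0.59 to -0.318, and the 28 without it -0.347, from -0.508 to -0.0508. The lowest of the 5 was Ndufaf8, whose value rests on dim spots. These matches are descriptions of the sequence and were not tested against expression.

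The 6 core subunits lay lowest as a class, with a median difference of -0.45 on the log2 scale and a range from -0.51 to -0.17. In 5 of the 6 every UCP1 array read below every control array, whereas 17.1% of all genes lay apart in that direction and 8.09% in the other. None passed the adjusted threshold. That compares with 2.92% of genes called lower and 1.13% called higher over the whole table.

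Ndufv1, which binds NADH and the flavin that takes its electrons, read 139, 133 and 109.9 on the UCP1 arrays and 180.2, 179 and 170.0 on the control arrays. All 3 UCP1 arrays lay below the lowest control array. The difference was -0.48 ± 0.156 on the log2 scale (SE, limma, adjusted p = 0.13). Its neighbour Ndufv2, an iron-sulfur subunit, read 326, 234 and 221 on the UCP1 arrays and 406, 345 and 341 on the control arrays. UCP1 array 1 stood well above the other UCP1 arrays there, and the groups still did not overlap. The difference of Ndufv2 was -0.50 ± 0.206 (SE, limma, adjusted p = 0.233).

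Ndufs1, the largest iron-sulfur subunit of the NADH-oxidising part, was the core gene whose groups overlapped. It read 58.9, 44.4 and 47.5 on the UCP1 arrays and 56.4, 56.5 and 56.0 on the control arrays. The control arrays were almost equal, and UCP1 array 1 lay above them while the other UCP1 arrays lay below. Its difference was -0.17 ± 0.136 (SE, limma, adjusted p = 0.574), and it was the core gene that turned positive under both other scalings, at 0.02 after quantile normalization and 0.01 with cyclic loess.

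In the part that hands electrons to ubiquinone, Ndufs3 read 109, 79.6 and 82.4 on the UCP1 arrays and 139, 127 and 116 on the control arrays. Its difference of -0.51 ± 0.162 (SE, limma, adjusted p = 0.122) was the lowest among core genes. A dimmer probe of Ndufs3 went the other way, with 10.3, 9.36 and 9.31 on the UCP1 arrays and 8.22, 9.35 and 8.18 on the control arrays, a difference of 0.17 (limma, adjusted p = 0.493). The probes of this gene therefore differed in sign, and neither passed. Ndufs8, which carries iron-sulfur clusters on the way to ubiquinone, read 104, 79.6 and 87.7 on the UCP1 arrays and 125, 113 and 125 on the control arrays, at -0.43 ± 0.15 (SE, limma, adjusted p = 0.161). Ndufs7, which holds the last cluster before ubiquinone, read 165, 154 and 144 on the UCP1 arrays and 202, 184 and 194 on the control arrays, at -0.33 ± 0.154 (SE, limma, adjusted p = 0.314). Both had groups that did not overlap.

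**Figure D1:**
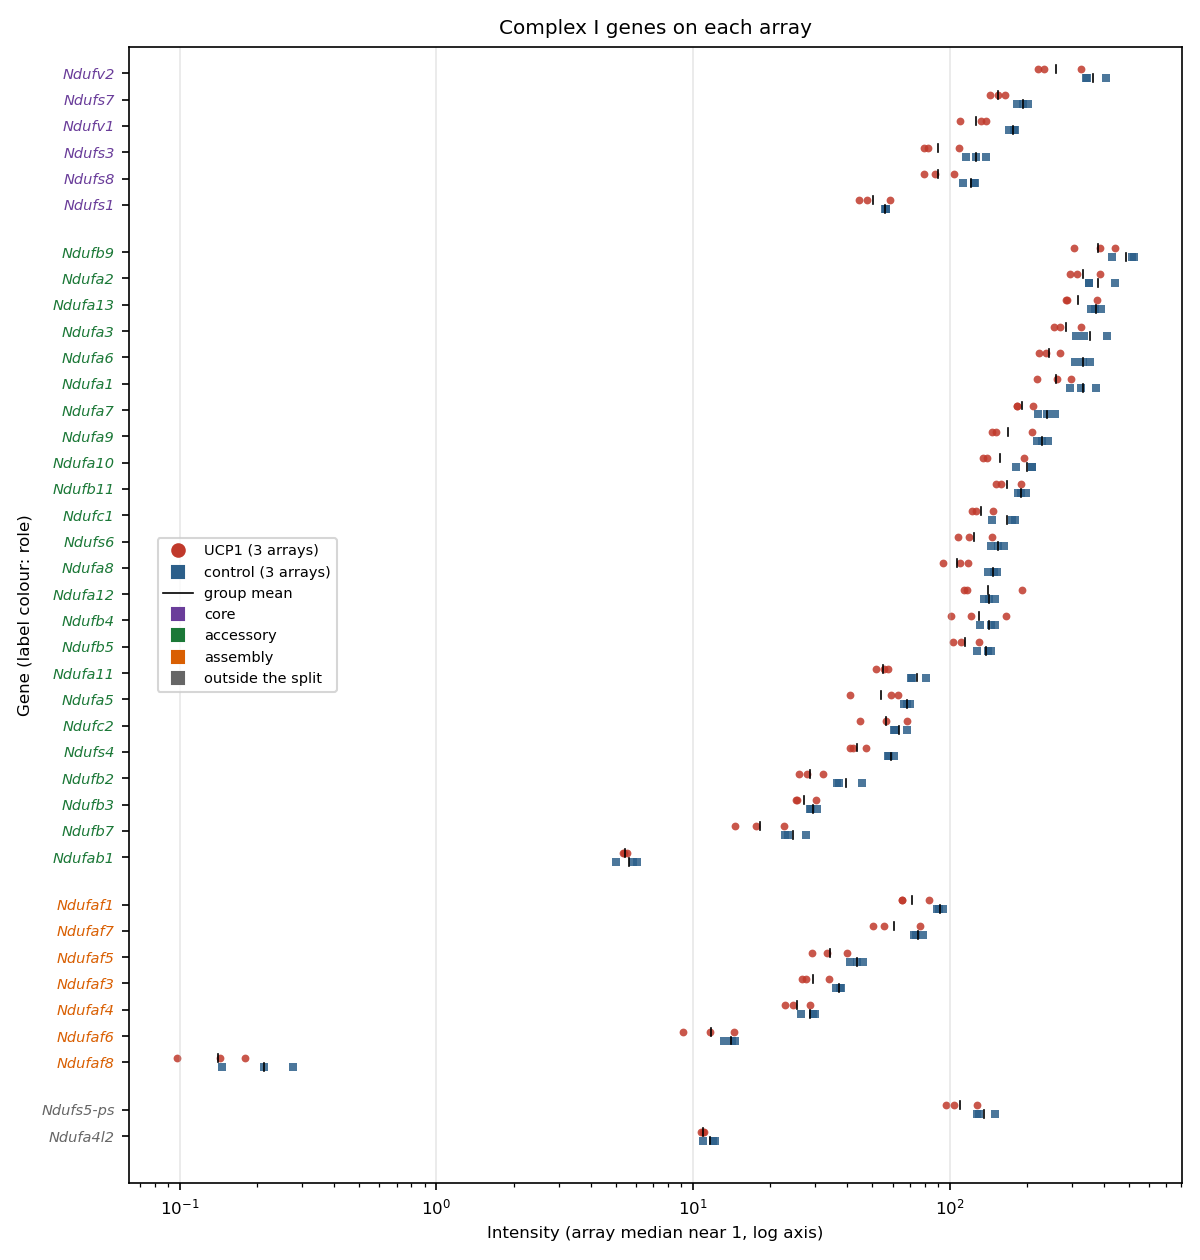
Intensity (log axis) of the 39 genes on each array, with UCP1 arrays as red circles drawn above control arrays as blue squares, black ticks at the group means and gene labels coloured by role. Subunit means ran from 5.44 to 378 on the UCP1 arrays and from 5.65 to 489 on the control arrays, and Ndufaf8 lay far below the rest.

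Accessory subunits had a median difference of -0.33 and ranged from -0.47 to -0.05. Of the 24, 9 had groups that did not overlap, all lower in UCP1, against 17.1% of all genes, and 0 passed the adjusted threshold in either direction (limma), against 4.05%. At an unadjusted p under 0.05, 7 of the 24 lay lower and 0 higher, against 15.1% and 5.73% of all genes.

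Ndufs4, a small subunit of the NADH-oxidising part whose loss causes a Leigh-like disease in mice, had the smallest p of the 39 genes. It read 47.4, 42.1 and 40.8 on the UCP1 arrays and 61.0, 57.8 and 58.3 on the control arrays, a difference of -0.44 ± 0.122 (SE, limma, adjusted p = 0.0751). Every UCP1 array lay below every control array, and the gap between groups exceeded the spread within each. Ndufb2, of the membrane arm, read 32.1, 26.0 and 27.8 on the UCP1 arrays and 45.4, 37.0 and 36.4 on the control arrays, at -0.47 ± 0.134 (SE, limma, adjusted p = 0.0877). Ndufa11, a membrane subunit, read 55.3, 57.8 and 51.9 on the UCP1 arrays and 81.2, 70.8 and 71.3 on the control arrays, at -0.44 ± 0.128 (SE, limma, adjusted p = 0.0936). For Ndufa11, unlike most of these genes, UCP1 array 1 was not the highest of its group.

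Ndufa8, which faces the intermembrane space, read 118, 109.9 and 94.2 on the UCP1 arrays and 141, 153 and 149.6 on the control arrays. Its -0.47 ± 0.15 (SE, limma, adjusted p = 0.121) was the lowest of the accessory subunits. Ndufb7, another subunit on that face, read 22.7, 14.6 and 17.7 on the UCP1 arrays and 27.5, 23.5 and 22.9 on the control arrays, at -0.45 (limma, adjusted p = 0.157). In Ndufb7 the highest UCP1 reading and the lowest control reading nearly met. Ndufa9, a subunit related to short-chain dehydrogenases, stood at -0.46 (limma, adjusted p = 0.209). Ndufa6, which binds the acyl carrier protein, stood at -0.44 (limma, adjusted p = 0.223). In both, every UCP1 array read below every control array, as it did in Ndufa5 and Ndufa7, at -0.35 and -0.32.

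The brightest accessory genes were Ndufb9, Ndufa2 and Ndufa13, and their groups overlapped. Ndufb9 read 442, 306 and 387 on the UCP1 arrays and 514, 429.7 and 524 on the control arrays, at -0.38 ± 0.216 (SE, limma, adjusted p = 0.414). Ndufa2 stood at -0.20 and Ndufa13 at -0.25, with adjusted p of 0.675 and 0.578 (limma). All 3 turned positive after quantile normalization, Ndufb9 at 0.08, Ndufa2 at 0.24 and Ndufa13 at 0.18.

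Ndufa12 and Ndufab1 were nearest to 0. Ndufa12 read 192, 114 and 117 on the UCP1 arrays and 150.1, 136 and 142 on the control arrays, at -0.06 ± 0.202 (SE, limma, adjusted p = 0.908). UCP1 array 1 was the highest of the 6 and the other UCP1 arrays were the lowest. Without UCP1 array 1 the difference was -0.31. A dimmer probe of Ndufa12 read between 0.037 and 0.389 over the 6 arrays, at the level of dim spots, and its sign was positive. Ndufab1, the mitochondrial acyl carrier protein, which also serves fatty acid and lipoic acid synthesis, read 5.56, 5.40 and 5.35 on the UCP1 arrays and 5.86, 5.01 and 6.08 on the control arrays, at -0.05 ± 0.117 (SE, limma, adjusted p = 0.87, 95% interval -0.31 to 0.20). Its other probe, nearly as bright, stood at -0.29 with groups that did not overlap (limma, adjusted p = 0.205). The 9 accessory subunits not yet described, from Ndufa10 at -0.37 to Ndufb3 at -0.12, all had overlapping groups and none passed.

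**Figure D2:**
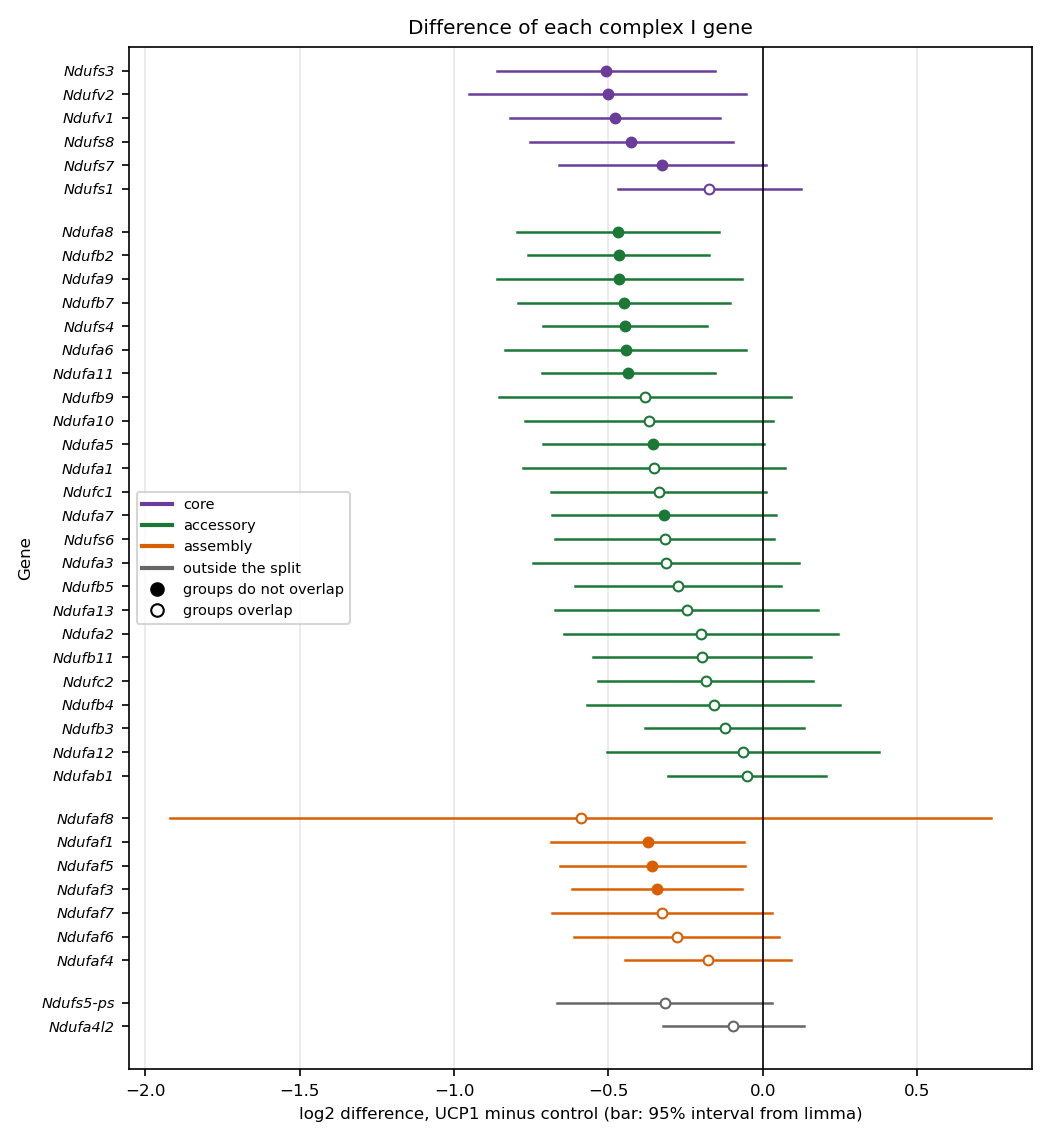
Difference between UCP1 and control (log2, UCP1 minus control) for each gene with the 95% interval from limma, coloured by role, filled where the 3 UCP1 arrays all lay on 1 side of the 3 control arrays. Every point lies left of 0, and 14 of the 39 intervals end left of 0. Such an interval matches an unadjusted p under 0.05, lower in UCP1, which held for 15.1% of all genes.

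The 7 assembly factors had a median difference of -0.34. Ndufaf7, a methyltransferase of the assembly pathway, gave the only Nduf probe past the threshold. This was the dimmer of its probes, which read 6.37, 7.63 and 6.54 on the UCP1 arrays and 11.4, 11.1 and 9.93 on the control arrays. All UCP1 readings lay well below the lowest control reading, and the probe fell by 0.66 on the log2 scale (limma, adjusted p = 0.0142). It was thus 1 of 44 Nduf probes called lower, against 2.03% of all 36116 probes, and 0 of 44 were called higher, against 0.8%. The call was lost without UCP1 array 3 (adjusted p = 0.109), without control array 1 (0.0652), without control array 2 (0.0633) and with limma without the intensity trend (0.233), and it held after quantile normalization (0.0406) and cyclic loess (0.0446). The brighter probe, which represents the gene here, read 77.0, 55.7 and 50.3 on the UCP1 arrays and 72.7, 73.9 and 78.9 on the control arrays, at -0.33 ± 0.163 (SE, limma, adjusted p = 0.347), with overlapping groups.

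Ndufaf1, a member of the intermediate that builds the membrane arm, read 83.4, 65.2 and 65.0 on the UCP1 arrays and 94.5, 89.4 and 90.9 on the control arrays, at -0.37 (limma, adjusted p = 0.201). Ndufaf3, which works with Ndufaf4 on the ubiquinone-reducing part, read 34.0, 27.6 and 26.7 on the UCP1 arrays and 37.8, 37.3 and 36.1 on the control arrays, at -0.34 (limma, adjusted p = 0.177). Its groups lay apart, while those of Ndufaf4, at -0.18 (limma, adjusted p = 0.519), overlapped. Ndufaf5, which hydroxylates an arginine of Ndufs7, read 39.9, 29.1 and 33.4 on the UCP1 arrays and 43.5, 40.9 and 45.9 on the control arrays, at -0.36 (limma, adjusted p = 0.199), again with groups apart.

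Ndufaf6, a protein related to phytoene synthases, stood at -0.28 (limma, adjusted p = 0.393) with overlapping groups. Ndufaf8, the partner of Ndufaf5, read 0.0976, 0.18 and 0.144 on the UCP1 arrays and 0.212, 0.147 and 0.277 on the control arrays. Those readings lay above only 9.39% of probes by mean level, so its -0.59 ± 0.609 (SE, limma, adjusted p = 0.682), the lowest value of the 39, rests on dim spots. It was the 1 gene of the 39 below the median probe.

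Outside these roles, Ndufa4l2, a hypoxia-inducible paralogue of a cytochrome oxidase subunit, read 11.0, 10.9 and 10.8 on the UCP1 arrays and 12.1, 11.0 and 11.9 on the control arrays. Its difference of -0.10 ± 0.105 (SE, limma, adjusted p = 0.699, 95% interval -0.32 to 0.13) was among the smallest. Ndufs5-ps, a transcribed pseudogene in RefSeq, stood at -0.32 (limma, adjusted p = 0.348), and its probe may not tell it from its parent gene.

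Taking the 39 genes as a whole, 17 had groups that did not overlap, all lower in UCP1, which is 43.6% against 17.1% of all genes and 23.7% of genes at or above the median probe. At an unadjusted p under 0.05 there were 14 lower and 0 higher (limma). The 14 are 35.9%, against 15.1% of all genes and 22.3% of genes at or above the median probe. Over all genes, 5.73% lay higher at that p. The 95% interval of 38 of the 39, all but Ndufaf8, stayed above -1 on the log2 scale. By place in the complex, assigned to 27 subunits and not to Ndufa6, Ndufa9 and Ndufab1, the 8 genes of the NADH-oxidising module had a median of -0.32 with 4 apart, the 4 of the ubiquinone-reducing module -0.39 with 4 apart, and the 15 of the membrane arm -0.34 with 4 apart. These differences between modules and between roles were not tested.

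The arrays of the UCP1 group were not alike. UCP1 array 1 gave the highest UCP1 reading in 37 of the 39 genes, and its median over the genes was 117.6, against 96.8 and 94.2 on UCP1 arrays 2 and 3 and 141, 128.5 and 127.9 on the control arrays. Genes at or above the median probe level had medians of 7.47, 6.76 and 6.76 on UCP1 arrays 1, 2 and 3. On the control arrays these were 7.92, 7.36 and 7.53. Of the UCP1 arrays, array 1 also had the highest median for complexes III, IV and V, and array 2 for complex II. Among complex I genes, UCP1 array 2 lay below every control array in 37, UCP1 array 3 in 38 and UCP1 array 1 in 18. The shares of all genes with these orders were not counted. In 4 genes, Ndufs1, Ndufa12, Ndufb4 and Ndufc2, UCP1 array 1 read above every control array. The median coefficient of variation was 14.6% among UCP1 arrays and 6.09% among control arrays, over the 38 genes other than Ndufaf8. Without UCP1 array 1, 14 genes passed, all lower, with a median of -0.44, while 0 passed when any of the other 5 arrays was left out. These fits differed in their calls over all probes. With all arrays 732 of 36116 probes were called lower. The count was 1609 without UCP1 array 1, 1499 without UCP1 array 2 and 93 without UCP1 array 3. Without control arrays 1, 2 and 3 it was 199, 271 and 444. Leaving out UCP1 array 1 also raised the share of all genes called lower to 6.62%, against 2.92% with all arrays, and moved the median of all genes to -0.14. The 14 were Ndufv1, Ndufv2, Ndufs3, Ndufs8, Ndufs4, Ndufa8, Ndufa9, Ndufa10, Ndufb2, Ndufb7, Ndufaf1, Ndufaf3, Ndufaf5 and Ndufaf7 (limma, adjusted p from 0.0196 to 0.0448). Of the 38 genes at or above the median probe level, 2 passed when only such probes were tested, where 10.5% of all such genes were called lower, and 7 passed there without the intensity trend, where 9.65% were. With array weights 2 of the 39 passed, against 5.37% of all genes. The 2 counts of 2 were thus at or below the share over all genes.

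**Figure D3:**
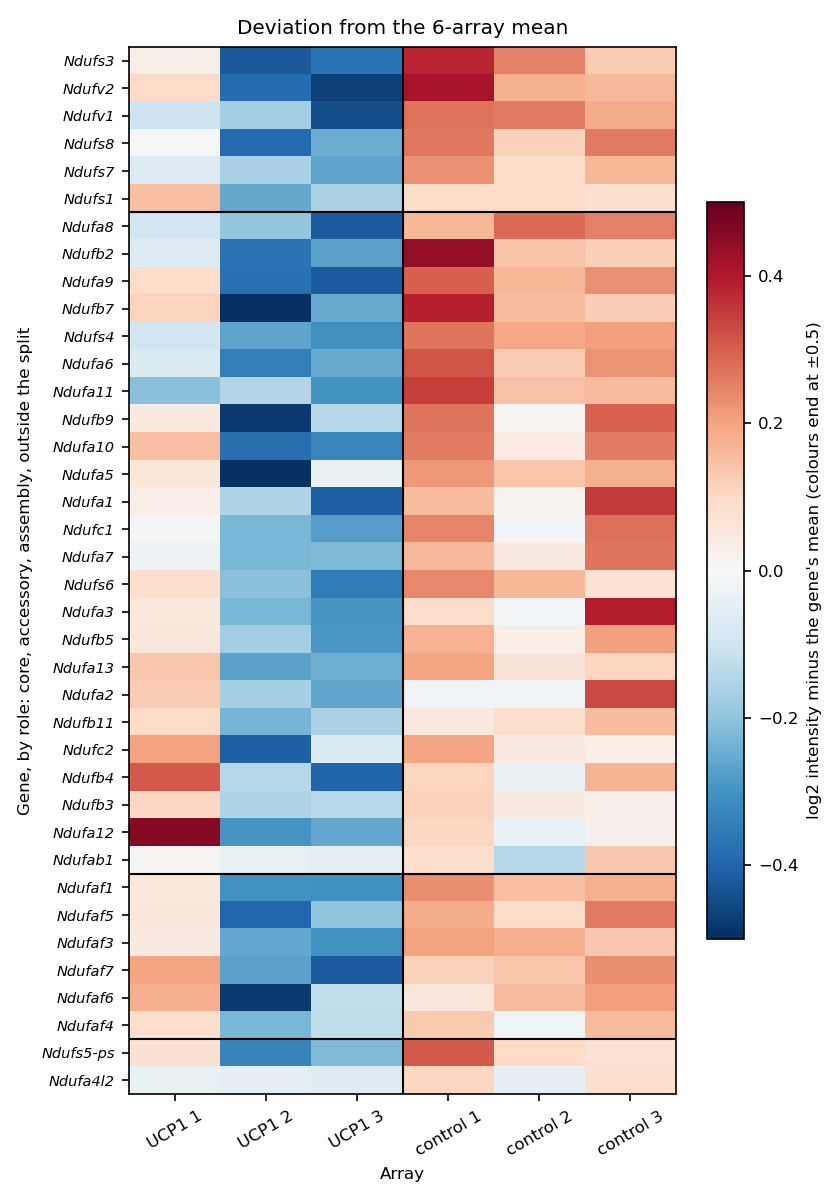
Log2 intensity of 38 genes (all but Ndufaf8) on each array minus the gene's mean over the 6 arrays, UCP1 arrays at left, rows grouped by role. UCP1 arrays 2 and 3 are blue, below the mean, in nearly every row. Counted over all 39 genes, with Ndufaf8, which is not drawn, UCP1 array 1 has the highest UCP1 value in 37. It lies below every control array in 18 of the 39 and above every control array in 4.

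Complex I genes are bright, and the difference varied with brightness. The median gene of the set had a mean level above 96.4% of probes. When all genes were divided by level into 10 bins of equal size, 32 of the 39 were in the brightest bin. In that bin, 81.9% of 1802 genes lay below 0 with a median of -0.18, and the 32 complex I genes had a median of -0.35, with 29 of them below the median of the bin. There 16 of the 32 had UCP1 arrays wholly below control arrays, against 25.7% of the bin's genes. The median difference was 0.05 in the third bin from the dim end and -0.09 in the seventh. The part of brightness in the complex I difference was not tested.

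**Figure D4:**
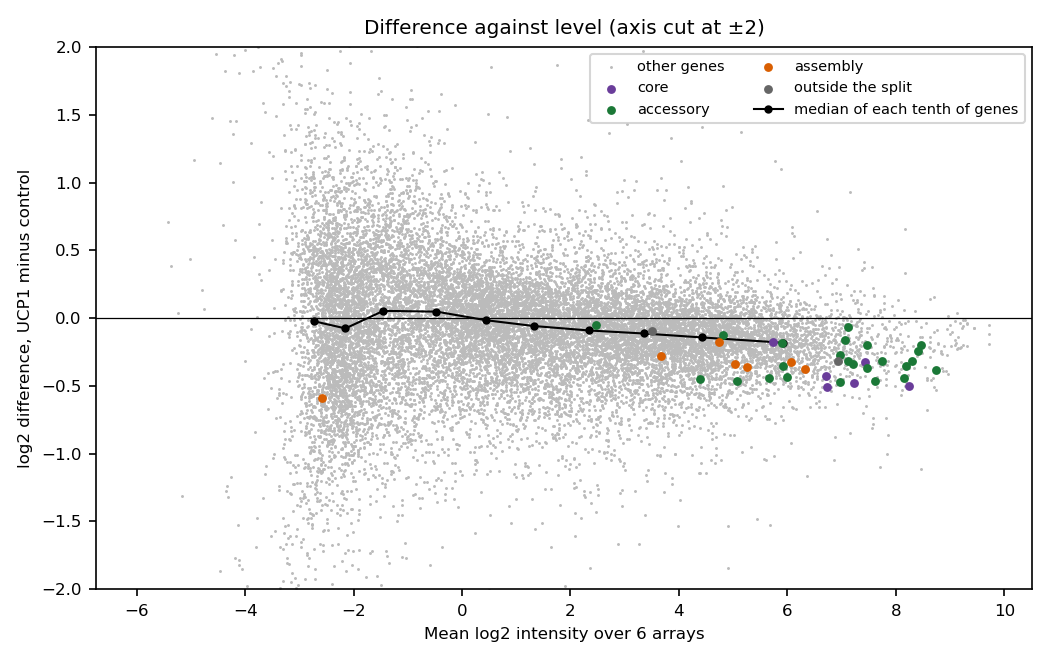
Log2 difference (UCP1 minus control) against mean log2 intensity for all 18014 genes (grey, 271 of them beyond the drawn range) and the complex I genes coloured by role, with the median of each of 10 bins by level as a black line. The line stands at -0.18 in the brightest bin, where most complex I genes lie below it.

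Under scalings that bring the arrays' distributions together, the medians lay nearer to 0. After quantile normalization the core genes had a median of -0.153 with 5 of 6 below 0, the accessory genes -0.013 with 12 of 24 below 0, and the assembly factors -0.152 with 7 of 7 below 0. With cyclic loess the medians were -0.216, -0.0806 and -0.168, with 5 of 6, 16 of 24 and 7 of 7 below 0. The medians of all genes under these scalings were 0.00878 and -0.00325. In the brightest of the 10 bins by level, the medians of the bin's genes were 0.0432 and 0.0202. Those of the 32 complex I genes in that bin were -0.083 and -0.11. By rank within an array, the median complex I gene stood above 96.2%, 96.1% and 96.2% of probes on the UCP1 arrays and above 96.3% of them on each control array. No gene of the 39 passed under either scaling. Of all 36116 probes, 446 were called lower and 567 higher after quantile normalization, and 460 and 517 with cyclic loess.

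**Figure D5:**
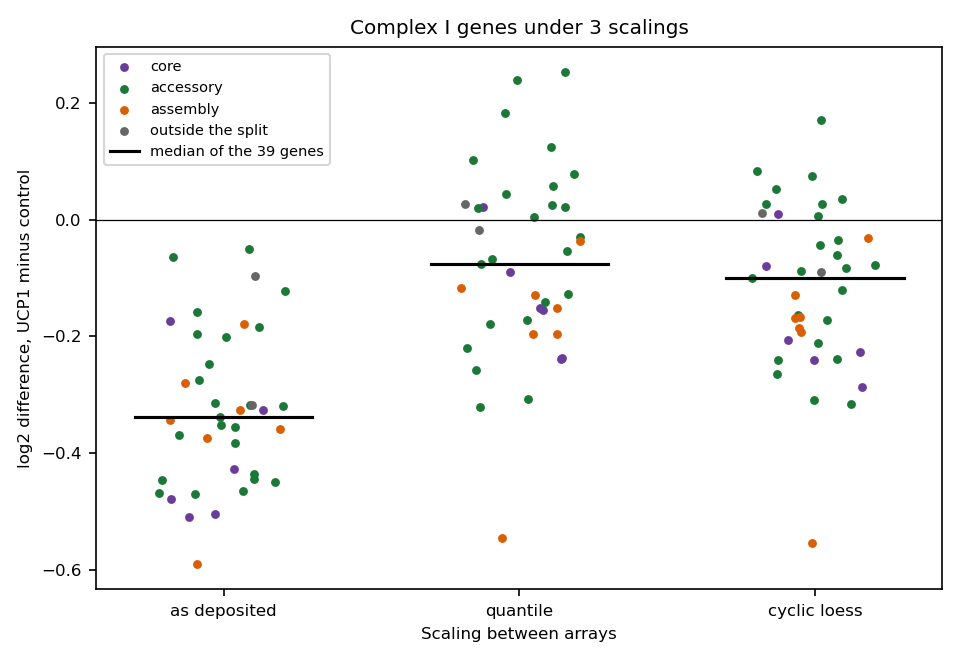
Log2 difference (UCP1 minus control) of each of the 39 genes in the deposited scaling, after quantile normalization and after cyclic loess, coloured by role, with the median as a bar. The bar stands at -0.338, -0.0755 and -0.0993, and genes of the accessory class lie on both sides of 0 after quantile normalization and cyclic loess.

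Complex I assembly factors outside the Nduf names lay on the same side of 0. All 10 that were measured lay below 0, with a median of -0.25, 3 with groups apart and 0 past the threshold (limma). Over all genes, 60.1% lay below 0, 17.1% lay apart in that direction and 2.92% were called lower. At an unadjusted p under 0.05, 3 of the 10 lay lower, against 15.1% of all genes. Dmac2, needed for the distal membrane arm, stood at -0.48 (limma, adjusted p = 0.0843), Nubpl, which delivers iron-sulfur clusters, at -0.26 and Foxred1, an oxidoreductase of the assembly pathway, at -0.24. Complex I subunits encoded by mitochondrial DNA were not analysed here.

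The other respiratory complexes had medians close to that of complex I, and the difference from it was not tested. Complex II had -0.46 over 4 genes, complex III -0.39 over 9, complex IV -0.38 over 16 and complex V -0.38 over 16. Genes called lower were Sdhd of complex II (1 of 4) and Atp5b of complex V (1 of 16), with 0 of 9 in complex III. In the complex IV list they were Cox7a1 and Cox7a2l (2 of 16). Of all genes, 2.92% were called lower. The complex IV list was made by gene symbol, so it may hold genes that are not subunits of the complex. Groups lay apart in the lower direction in 44.4% of complex III genes, 50% of complex II, 56.2% of complex IV and 68.8% of complex V, against 43.6% in the Nduf genes, 25.7% in the brightest bin and 17.1% of all genes. In complex III, Cyc1 and Uqcrb lay above 0, and each had its lowest reading of the 6 on control array 2, at 48.6 and 102.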

How the data were processed

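The authors deposited linear spot intensities, scaled so that array medians were 1.04 to 1.05, judged from the values. The scaling step was, like the scanner and any background correction, not given in the sources used here. Of 36227 probes, 21615 had 1 gene symbol in the platform annotation, and the symbols of all 39 genes matched RefSeq (GRCm38.p6, also the source of the promoters). The code -9999 was treated as missing. Values at or below 0 took the smallest positive value of their array before log2. A probe was tested with values on at least 2 arrays per group (36116 probes) with limma 3.58.1 in R 4.3.3 (lmFit, eBayes with an intensity trend, two-sided, Benjamini-Hochberg over all probes). Groups came from the source field of the labels. Array number limits the precision, with 3 per group. The fit was first tested on simulated data. There it recovered 6% of changes of 0.5, 84% of changes of 1 and 100% of changes of 2 (log2), with 10 false calls.

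Genes named by rule were any called gene, all core subunits, all assembly factors, Ndufa4l2 and Ndufab1. From the accessory subunits came the 8 with the smallest p, the 2 highest and 2 lowest differences, the 3 brightest, and genes whose probes differ in sign. Other genes were chosen after their values were seen. The members and lists were chosen with earlier results of these data known. Alternatives were an offset of 0.171 before log2, quantile, cyclic loess and median scaling, the brighter probes, the mean over probes of a gene, limma without trend, robust or with array weights, each array left out, and the replicate number as a block.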

Additional observations from a re-analysis of the deposited data

How the results depend on the processing

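The count of called complex I genes was 0 as reported and changed with 4 settings, always towards lower in UCP1. It was 2 when only probes brighter than the median probe were tested, 2 with array weights and 7 on those brighter probes without the intensity trend, a setting chosen after seeing the data, and 0 to 14 when single arrays were left out, with 14 without UCP1 array 1. Over all genes the shares called lower were 10.5%, 5.37%, 9.65% and, without UCP1 array 1, 6.62%, against 2.92% as reported. With any other single array left out, 93 to 1499 probes were called lower, against 732 of 36116 as reported. Genes called higher numbered 0 under every setting run. The median difference of all 39 genes (-0.338 as reported) moved to -0.0755 after quantile normalization and -0.0993 with cyclic loess, that of core genes (-0.452) to -0.153 and -0.216, that of accessory genes (-0.328) to -0.013 and -0.0806, and that of assembly factors (-0.343) to -0.152 and -0.168. With single arrays left out, the median of all 39 ranged from -0.44 to -0.278. The count below 0, 39 as reported, was 38 with the mean over probes of a gene. It was 38 without UCP1 array 2, 37 without UCP1 array 3 and 38 without control array 3. Ucp1, at 3.00 (limma, adjusted p = 0.00013), lost its call without the intensity trend (adjusted p = 0.0855), where 0 probes passed, and is below the level needed for the brighter-probe setting. The labels do not say whether the title digits pair the arrays. Deviations of same-numbered arrays correlated at -0.24, -0.00693 and 0.104, and those of differently numbered arrays at -0.364 to 0.35. With 3 arrays per group, such values cannot decide whether the arrays were paired. With the replicate number as a block, 0 complex I genes passed, with a median of -0.338. Signal over background limited Ndufaf8.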
